A study of Mus musculus with 12 samples.

Results

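*Xdh*, *Dpep1*, *Maoa*, *Gpx3*, *Sod3*, *Cat*, *Mgst1*, *Txnip*, *Nqo1* and *Hmox1*, which are 10 genes of redox and oxidase chemistry, were followed in mouse skeletal muscle fibroblasts. They were taken by symbol from the deposited tables, where all 10 were found among 28995 genes. The genes were chosen from values measured in these same libraries, so their aldosterone differences are a description: the limma threshold used on all genes is also used to count these 10, but calls on them are no independent evidence and no p-value is given. Primary fibroblasts came from the hindlimb muscle of wild-type C57 BL/10 pups (3 days old, 2 mice), and steroids had been depleted from the serum of all groups by charcoal a day ahead. Plates then received 1 µM aldosterone (agonist of the mineralocorticoid receptor, MR), 1 µM spironolactone (MR antagonist) or vehicle (DMSO) for 48 hours, and poly(A) RNA of 4 libraries per treatment was sequenced. Each library carries a sample number and a biological replicate number, both 1 or 2, and which of these is the mouse is not given. A p-value therefore measures the spread between plates of 2 mice, which is partly technical.

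Cells make reactive oxygen in enzyme reactions that hand electrons to oxygen, and remove it through superoxide dismutases, catalase and peroxidases that draw on glutathione or thioredoxin. Xanthine oxidoreductase, encoded by *Xdh*, forms uric acid in purine breakdown and can pass its electrons to oxygen. Monoamine oxidase A (*Maoa*) releases hydrogen peroxide as it degrades serotonin and noradrenaline. *Nqo1* and *Hmox1* are classical targets of NRF2, the transcription factor that raises antioxidant genes when its inhibitor KEAP1 is modified. Among the 10 genes, *Dpep1* encodes a peptidase and *Txnip* an arrestin-like protein, so the group is broader than its name.

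Between 19136923 and 30219185 reads per library (median 23833379) fell on genes. The treatment was visible in all 4 genes listed as steroid receptor targets, with log2 differences between aldosterone and vehicle of 4.26 for *Fkbp5*, 2.69 for *Tsc22d3*, 1.83 for *Per1* and 6.67 for *Zbtb16*, the last from 7.15 normalized counts in vehicle. Fibroblast markers were high, their 8 genes summing to 1027200 to 1124400 normalized counts per vehicle library and 824180 to 935590 per aldosterone library. These sums are mostly *Col1a1*, *Col1a2* and *Col3a1*, of which *Col3a1* fell (limma adjusted p = 0.00044), while the receptor *Pdgfra* rose from 3150 ± 206 to 5912 ± 312 (SD, n = 4; limma adjusted p = 2.93e-08) and the other 6 did not pass. Of 10 macrophage markers, 7 were in the aldosterone and vehicle table and summed to 306 to 367 in vehicle and 330 to 370 with aldosterone, with *Adgre1* at 0 in every vehicle library and *Ptprc* at 0 in every aldosterone library. Of the 7 only *Cd14* passed, rising from 53.5 ± 6.64 to 86.5 ± 6.96 (SD, n = 4; limma adjusted p = 0.013). The 6 endothelial markers summed to 473 to 533 in vehicle and to 679 to 754 with aldosterone. Most of that sum was *Tek* (444 ± 22.0 and 523 ± 39.1, SD, n = 4). Among them *Kdr* rose (45.1 ± 23.1 to 168 ± 79.6, SD, n = 4; limma adjusted p = 0.0018). *Pecam1* was at 10.1 or less in every library, with a lower mean with aldosterone (6.57 ± 2.45 to 2.85 ± 0.85). Of the other low ones, *Cdh5* and *Emcn* had higher means with aldosterone and *Cldn5* a lower one. Of 7 myogenic markers, 6 were in the table and summed to 521 to 776 in vehicle and 210 to 449 with aldosterone. Most of that sum was *Acta1*, which fell (539 ± 103 to 236 ± 96.0, SD, n = 4; limma adjusted p = 0.00099). *Pax7* was at 0 in every aldosterone and every spironolactone library and at 3.66 or less in vehicle. *Myh3* alone had a higher mean with aldosterone (8.62 ± 8.56 to 11.4 ± 9.95). The part of these markers in the results below was not tested, and in bulk RNA fewer cells of a type and less RNA per cell cannot be told apart.

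With aldosterone, 8 of the 10 genes had a higher level than with vehicle at any fold and a limma adjusted p no higher than 0.05 (5.68% of 27319 genes were called so in this direction) and none a lower one (4.74%). Of these, 4 (*Xdh*, *Dpep1*, *Gpx3* and *Txnip*) also had a log2 difference of at least 1 (1.4% of genes were so higher and 0.666% so lower). These counts follow from how the genes were chosen and nothing is read from them. In 7 of the 10, every aldosterone library lay above every vehicle library, as in 7.55% of all genes. Sizes ran from a 32.0-fold difference in *Dpep1* to none that could be resolved in *Nqo1*.

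**Figure D1:**
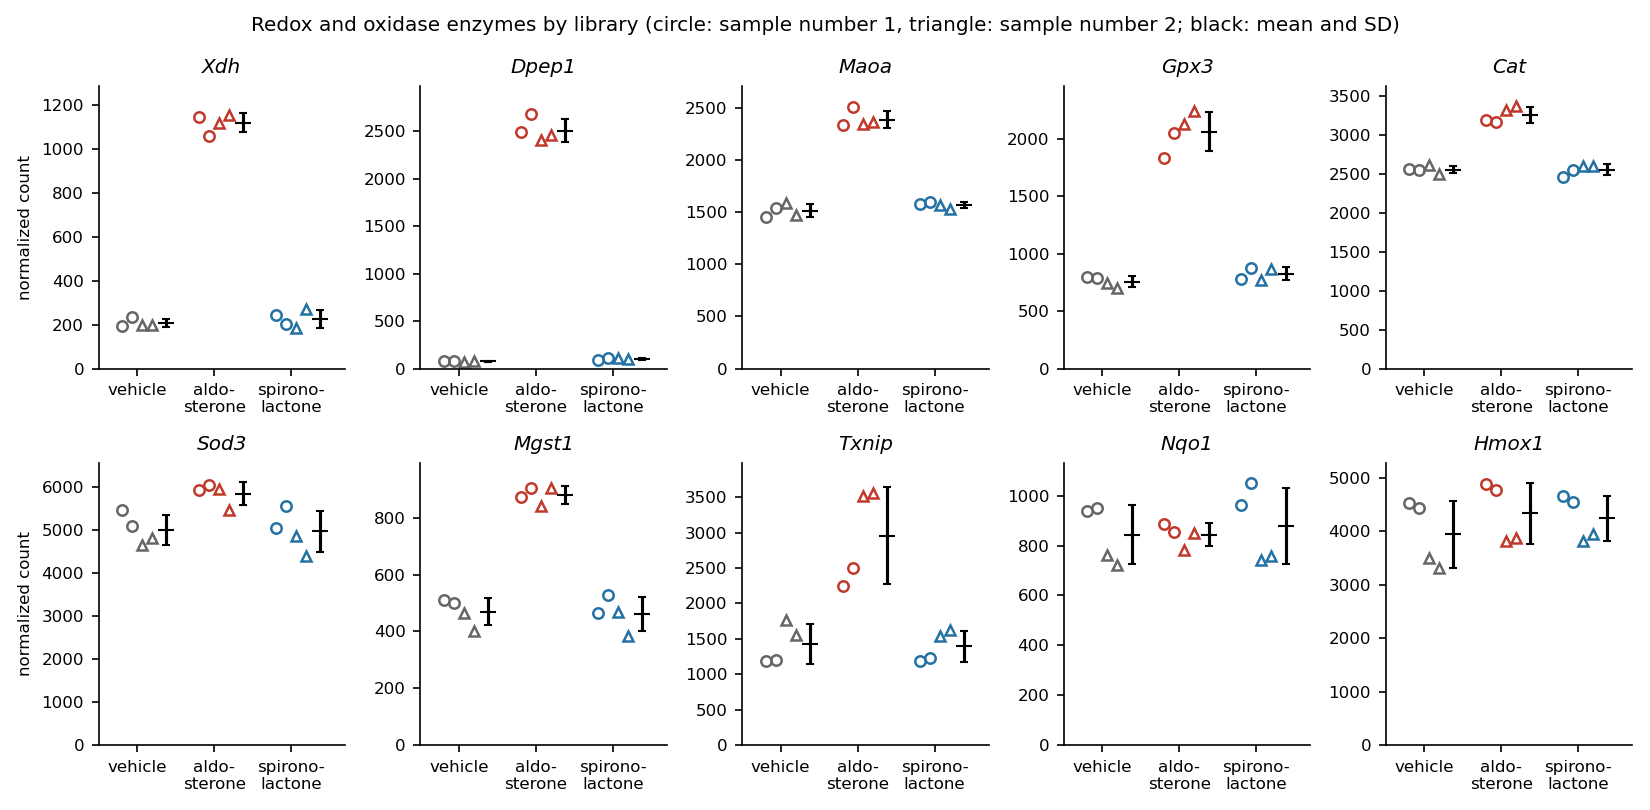
Normalized counts (y axis, from 0) of the 10 genes in each library of the 3 treatments, with circles for sample number 1, triangles for sample number 2 and black bars for the mean and SD of 4 libraries. Aldosterone and vehicle values are from their shared table and spironolactone values from the table with vehicle. The aldosterone points of *Xdh* lie between 1057 and 1155 and all vehicle points between 194 and 234, whereas in *Nqo1* and *Hmox1* the points separate by sample number rather than by treatment.

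*Dpep1* (ENSMUSG00000019278, chr8:123912981-123928551, plus strand, 2486 bases of exons) encodes a zinc-dependent dipeptidase held at the cell surface, which cleaves cysteinyl-glycine from glutathione breakdown and converts leukotriene D4. Its normalized counts were 2492, 2679, 2404 and 2460 with aldosterone and 81.4, 82.9, 68.3 and 77.3 with vehicle, each time in the order of sample number 1 and then 2. The lowest aldosterone library was far above the highest vehicle library. On the scale of log2(normalized count + 1) the difference was 5.00 ± 0.080 (SE, n = 4 per group), with a 95% interval of 4.83 to 5.17. Against spironolactone, a comparison that uses the same aldosterone libraries, the difference was 4.65 ± 0.084.

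The stretch of 250 bases before the annotated start of *Dpep1* (GRCm38.p6, chr8:123185985-123186234, plus strand, RefSeq) is shown because this gene moved most and the stretch held none of the motifs searched. The motifs, each on both strands, were a steroid receptor half-site (AGAACA or TGTTCT, in 18.97% of 32851 promoters of 300 bases), the paired form of it (GNACANNNTGTNC, in 0.475%), an antioxidant response element (TGACNNNGC or GCNNNGTCA, in 12.4%), an E-box (CACGTG, in 7.15%) and a carbohydrate response element made of 2 E-box-like parts (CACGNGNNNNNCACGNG or CNCGTGNNNNNCNCGTG, in 0.0487%). The half-site can overlap an edge of the paired form but not lie within it, and a match is a description of the letters, not a site. Promoters of 300 bases, running 50 bases past the start, were at hand for 7 of the 10 genes, 8 in all, and not for *Xdh*, *Sod3* and *Hmox1*.
Dpep1 upstream: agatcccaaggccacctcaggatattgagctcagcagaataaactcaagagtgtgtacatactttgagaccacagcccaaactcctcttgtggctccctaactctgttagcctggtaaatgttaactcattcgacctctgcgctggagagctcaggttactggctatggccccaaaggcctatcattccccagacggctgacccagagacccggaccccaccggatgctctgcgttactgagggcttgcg

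*Xdh* (ENSMUSG00000024066, chr17:74190890-74257191, minus strand, 9175 bases of exons) encodes xanthine oxidoreductase, a molybdenum and flavin enzyme. Aldosterone libraries held 1146, 1057, 1119 and 1155 normalized counts and vehicle libraries 194, 234, 198 and 198. The groups did not overlap, and the second vehicle library of sample number 1 stood above the other vehicle libraries. The log2 difference was 2.44 ± 0.079 (95% interval 2.27 to 2.61), which is 5.43-fold, and 2.33 ± 0.10 against spironolactone.

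*Maoa* (ENSMUSG00000025037, chrX:16485937-16554057, plus strand, 4167 bases of exons) encodes the monoamine oxidase of the outer mitochondrial membrane. With aldosterone it was at 2337, 2508, 2352 and 2370 normalized counts and with vehicle at 1456, 1541, 1594 and 1473. Every aldosterone library was above the vehicle libraries, though by less than in the genes above. Its log2 difference was 0.66 ± 0.055 (0.54 to 0.77), or 1.58-fold, and 0.62 ± 0.053 against spironolactone.

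*Gpx3* (ENSMUSG00000018339, chr11:54793279-54801203, plus strand, 1813 bases of exons) encodes the secreted, selenium-containing glutathione peroxidase. Its libraries were at 1832, 2048, 2125 and 2242 normalized counts with aldosterone and at 796, 791, 741 and 698 with vehicle. The aldosterone libraries of sample number 2 were the highest and the vehicle libraries of sample number 2 the lowest. Aldosterone and vehicle differed by 1.44 ± 0.071 on the log2 scale (1.29 to 1.59), or 2.72-fold, and 1.33 ± 0.070 against spironolactone. The 250 bases upstream of its start (GRCm38.p6, chr11:54902604-54902853, plus strand, RefSeq) are printed with the half-site TGTTCT in capitals, at positions -133 to -128 where the start site counts as 0.
Gpx3 upstream: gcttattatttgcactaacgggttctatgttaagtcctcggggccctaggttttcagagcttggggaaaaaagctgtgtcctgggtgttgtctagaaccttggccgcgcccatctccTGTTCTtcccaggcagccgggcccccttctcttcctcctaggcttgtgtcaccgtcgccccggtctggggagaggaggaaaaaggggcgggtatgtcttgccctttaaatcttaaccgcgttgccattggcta

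Catalase (*Cat*, ENSMUSG00000027187, chr2:103284194-103315505, minus strand, 2613 bases of exons), the peroxisomal enzyme that splits hydrogen peroxide, was at 3193, 3162, 3315 and 3378 normalized counts with aldosterone. Vehicle libraries held 2558, 2553, 2618 and 2496. The groups did not overlap although the difference was small, 0.35 ± 0.050 on the log2 scale (0.24 to 0.46; 0.36 ± 0.052 against spironolactone), since the SD of the vehicle libraries was 1.95% of their mean. The promoter of *Cat* held 1 half-site AGAACA at -197 to -192.

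*Sod3* (ENSMUSG00000072941, chr5:52521133-52528760, plus strand, 3738 bases of exons) encodes the superoxide dismutase of the extracellular space. Aldosterone libraries were at 5941, 6048, 5966 and 5465 normalized counts and vehicle libraries at 5466.5, 5095, 4656 and 4818. The groups overlapped by a single pair of libraries, the lowest aldosterone library at 5464.7 and the highest vehicle library at 5466.5, which carry different sample numbers. The log2 difference was 0.23 ± 0.060 (0.10 to 0.35), and 0.25 ± 0.067 against spironolactone. *Sod3* was no longer among the genes called higher than vehicle when aldosterone 1_2 (sample number, then replicate), aldosterone 2_1, vehicle 2_1 or vehicle 2_2 was left out, with a difference between 0.19 and 0.22 in those fits. They held treatment alone. With sample number as a replicate block and all libraries, the interval of the difference from vehicle was 0.14 to 0.31.

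*Mgst1* (ENSMUSG00000008540, chr6:138117314-138133753, plus strand, 2013 bases of exons) encodes a glutathione transferase of the endoplasmic reticulum and outer mitochondrial membrane that also reduces lipid peroxides. It was at 872, 907, 841 and 904 normalized counts with aldosterone and 509, 502, 466 and 403 with vehicle. The groups were well apart, and the vehicle libraries spread more than the aldosterone libraries (SD 10.4% and 3.54% of the mean). On the log2 scale the difference was 0.91 ± 0.079 (0.74 to 1.08), or 1.88-fold, and 0.95 ± 0.086 against spironolactone. Of its pair of annotated promoters, the first held an antioxidant response element at -56 to -48 and the second a half-site at -239 to -234.

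*Txnip* (ENSMUSG00000038393, chr3:96465273-96469199, plus strand, 3123 bases of exons) encodes an alpha-arrestin that binds reduced thioredoxin and lowers glucose uptake. With aldosterone its libraries were at 2239 and 2506 normalized counts in sample number 1 and at 3514 and 3564 in sample number 2. Vehicle libraries held 1183 and 1207 in sample number 1 and 1770 and 1551 in sample number 2. The treatments did not overlap, and within each of them sample number 2 was higher. The log2 difference was 1.04 ± 0.15 (0.73 to 1.35), or 2.06-fold, and 1.08 ± 0.13 against spironolactone. The difference from vehicle fell below 1 when aldosterone 2_1 (0.95), aldosterone 2_2 (0.94), vehicle 1_1 (0.96) or vehicle 1_2 (0.97) was left out. Leaving out 1 library in these fits with treatment alone left the sample numbers unbalanced between the treatments. With sample number as a replicate block and all libraries, the difference was 1.04 ± 0.051 (0.94 to 1.14).

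The upstream stretch of *Txnip* (GRCm38.p6, chr3:96557707-96557956, plus strand, RefSeq) is shown because it held both rare motifs. Capitals mark the paired steroid receptor form GCACACCGTGTCC at -172 to -160 and the carbohydrate response element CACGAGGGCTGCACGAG at -85 to -69. None of the other 7 promoters held either of these, and those of *Maoa* and *Nqo1*, like that of *Dpep1*, held none of the 5 motifs.
Txnip upstream: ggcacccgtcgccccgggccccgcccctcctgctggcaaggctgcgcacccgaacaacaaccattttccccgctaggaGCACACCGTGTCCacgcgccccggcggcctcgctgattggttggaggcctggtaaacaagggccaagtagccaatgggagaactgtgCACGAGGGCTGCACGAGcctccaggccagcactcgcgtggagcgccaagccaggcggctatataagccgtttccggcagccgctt

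*Nqo1* (ENSMUSG00000003849, chr8:108114857-108129838, minus strand, 1553 bases of exons) encodes the quinone reductase that uses NADH or NADPH. Its aldosterone libraries were at 889, 857, 781 and 851 normalized counts and its vehicle libraries at 940, 950, 763 and 722. The aldosterone libraries lay within the range of the vehicle libraries. The log2 difference was 0.010 ± 0.088 (-0.18 to 0.20) and -0.033 ± 0.098 against spironolactone. In the fit with treatment alone a rise from vehicle of up to 1.15-fold could not be told from none. With sample number as a replicate block the interval of the difference from vehicle was -0.11 to 0.13.

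*Hmox1* (ENSMUSG00000005413, chr8:75820249-75827217, plus strand, 1751 bases of exons) encodes heme oxygenase 1, which opens heme to biliverdin, iron and carbon monoxide. It was at 4885, 4776, 3821 and 3877 normalized counts with aldosterone and at 4525, 4435, 3494 and 3308 with vehicle. The treatments overlapped, but in both sample numbers the aldosterone libraries were above the vehicle libraries, with 2 libraries per treatment in each. The same order held in all the followed genes but *Nqo1*, and its share among all genes is not given here. The difference on the log2 scale was 0.14 ± 0.10 (-0.077 to 0.36), and 0.040 ± 0.086 against spironolactone. When sample number was added as a replicate block, the interval of the difference from vehicle narrowed to 0.060 to 0.23. The number of followed genes higher than vehicle at any fold went from 8 to 9 by the addition of *Hmox1*. Among all genes that number went from 1553 to 2371. With the same block, spironolactone was above vehicle by 0.11 (0.021 to 0.19) in *Hmox1*, which did not pass (limma adjusted p = 0.476). Blocked aldosterone and spironolactone differed by 0.040 (-0.047 to 0.13), an interval spanning both signs, so a rise particular to aldosterone was not resolved.

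**Figure D2:**
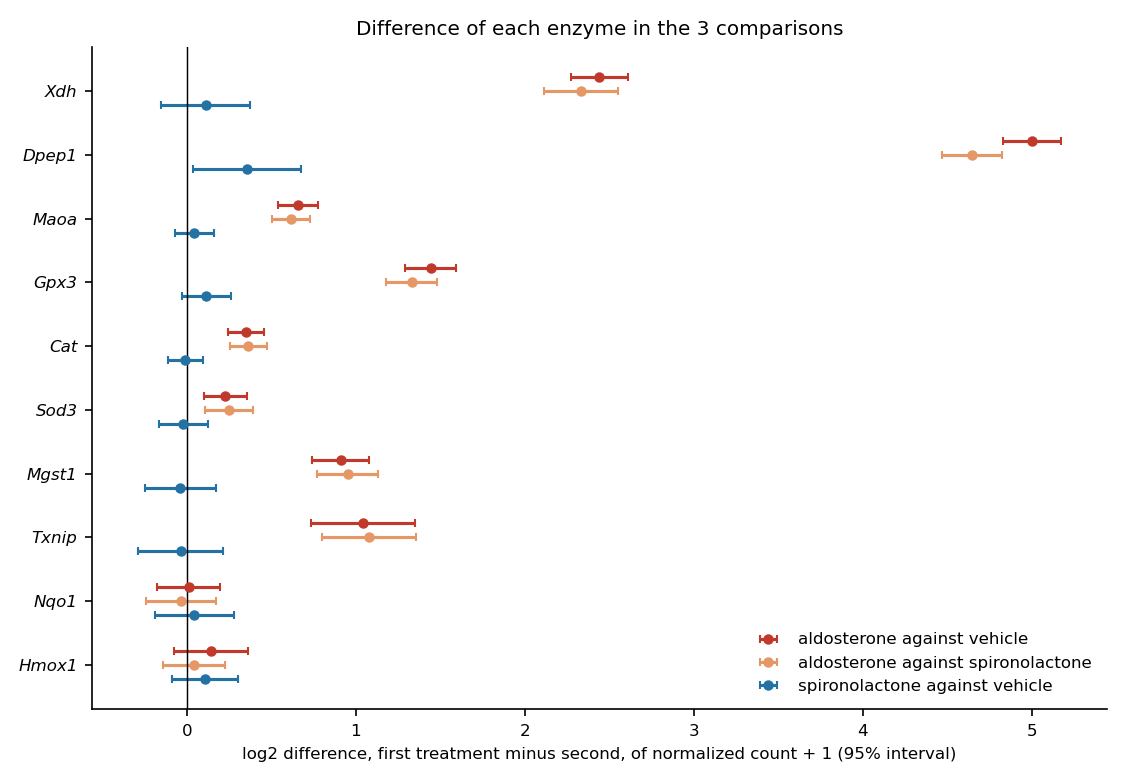
Log2 differences (x axis, first treatment minus second, of normalized count + 1) of the 10 genes in the 3 comparisons, with points for the fitted value and bars for the 95% interval. The aldosterone points of *Dpep1* stand at 5.00 and 4.65, those of *Nqo1* at 0.010 and -0.033, and the intervals for spironolactone against vehicle include 0 in every gene except *Dpep1*.

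Levels were compared between genes as normalized counts per kilobase of exon. In vehicle the order was *Hmox1* (2251 ± 359, SD, n = 4), *Sod3* (1340 ± 94.98), *Cat* (978 ± 19.1), *Nqo1* (543 ± 76.1), *Txnip* (457 ± 90.7), *Gpx3* (417 ± 25.7), *Maoa* (364 ± 15.3), *Mgst1* (233 ± 24.2), *Dpep1* (31.2 ± 2.63) and *Xdh* (22.4 ± 2.07). Neighbours overlapped only between *Nqo1* and *Txnip* and between *Txnip* and *Gpx3*. With aldosterone, *Dpep1* reached 1009 ± 47.9 per kilobase, from the ninth to the fifth place, and overlapped with *Gpx3* (1137 ± 95.3) above and *Txnip* (946 ± 219) below. *Cat* (1249 ± 39.0) and *Gpx3* overlapped as well, as did *Maoa* (574 ± 18.9) and *Nqo1* (544 ± 29.3). *Xdh* stayed the lowest of the 10 at 122 ± 4.83, and *Hmox1* (2478 ± 325) and *Sod3* (1566 ± 70.6) stayed the highest. With spironolactone, in a table scaled separately, *Hmox1* (2422 ± 240), *Sod3* (1330 ± 128) and *Cat* (978 ± 25.7) led and *Dpep1* (40.4 ± 4.54) and *Xdh* (24.6 ± 4.40) were the last. Between them, neighbours overlapped within the run of *Nqo1* (566 ± 98.8), *Gpx3* (455 ± 30.5), *Txnip* (446 ± 68.8) and *Maoa* (377 ± 6.81). *Nqo1* lay apart from *Cat*, and *Mgst1* (229 ± 29.6) stood apart from those beside it.

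**Figure D3:**
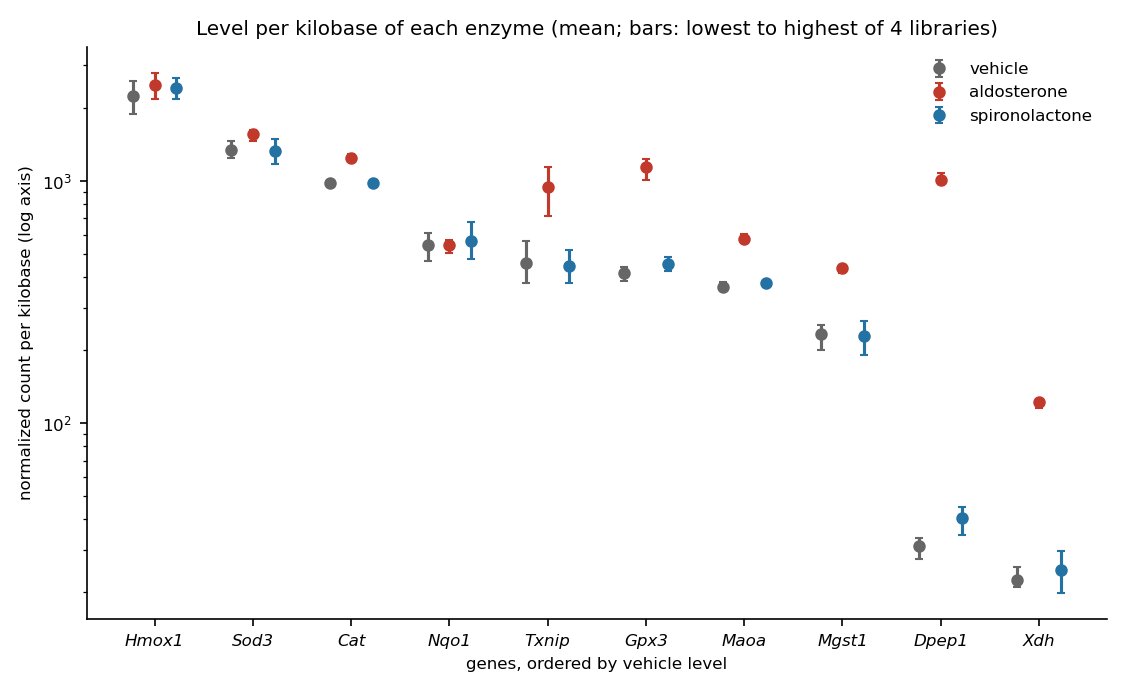
Level of each gene as normalized counts per kilobase of exon (y axis, log scale), ordered by the vehicle level, with points for the mean and bars from the lowest to the highest of 4 libraries. The order is kept by *Hmox1*, *Sod3* and *Cat* at the top and *Xdh* at the bottom, while *Dpep1* moves from 31.2 in vehicle to 1009 with aldosterone.

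Spironolactone asked whether blocking MR in steroid-depleted serum moved these genes. By limma, 0 of 27598 genes passed an adjusted p of 0.05 in either direction (0% called), with 1251 genes under an unadjusted p of 0.05, 13 genes by DESeq2 and 0 by edgeR at an adjusted p of 0.05. None of the 10 genes was among those called by the 3 tools. In the limma fit with treatment alone *Dpep1* came nearest, at 86.05, 111, 107 and 96.9 normalized counts with spironolactone against 81.7, 83.6, 68.8 and 77.8 with vehicle. All its spironolactone libraries were above the vehicle libraries, as in 1.39% of all genes. The log2 difference of *Dpep1* was 0.36 ± 0.15 (0.039 to 0.68), with an unadjusted limma p of 0.030 and an adjusted p of 0.934, so it did not pass. In *Xdh*, spironolactone libraries were at 243, 205, 182 and 273 normalized counts and straddled the vehicle libraries, with a difference of 0.11 ± 0.12 (-0.15 to 0.37). For *Gpx3* the difference was 0.12 ± 0.070 (-0.031 to 0.26) and for *Hmox1* 0.11 ± 0.093 (-0.090 to 0.30). In the remaining 6 genes the difference lay between -0.039 and 0.045, the groups overlapped, and the intervals reached from -0.29 (*Txnip*) to 0.28 (*Nqo1*).

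In aldosterone against spironolactone 8 of the 10 genes were higher at any fold (4.93% of 27631 genes), none was lower (3.96%), and 4 had a difference of at least 1 (1.38% of genes were so higher and 0.521% so lower). They were the same genes as against vehicle, and since both comparisons use the aldosterone libraries their values stand side by side above and no likeness is drawn from them. *Mgst1* joined the 4 with a difference of 1.02 when spironolactone 1_2 was left out, and *Txnip* left them when aldosterone 2_1 (0.99) or aldosterone 2_2 (0.98) was. *Sod3* left the 8 without aldosterone 1_1, 1_2 or 2_1 or without spironolactone 2_1 or 2_2, with differences between 0.19 and 0.24. These fits held treatment alone. With sample number as a replicate block and all libraries, the intervals were 0.97 to 1.18 for *Txnip* and 0.16 to 0.35 for *Sod3*.

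The sample number was not used to choose the genes, so its differences were tested. Libraries of a sample number may be plates of the same cells, so the p-values of this test measure the spread between plates. In the aldosterone and vehicle table, fitted with treatment and sample number, 3 of the 10 genes differed between the sample numbers at a limma adjusted p of at most 0.05. One was higher in sample number 2 (3.98% of genes were) and 2 were lower (4.79%). *Txnip* was higher by 0.53 ± 0.051 on the log2 scale (adjusted p = 6.55e-09), with means of 2600 and 1784 normalized counts in sample numbers 2 and 1. *Hmox1* was lower by a difference of -0.36 ± 0.041 (adjusted p = 1.28e-07; means of 3625 and 4655). *Nqo1* was lower by a difference of -0.22 ± 0.061 (adjusted p = 0.016; means of 779 and 909). That call on *Nqo1* was lost when aldosterone 2_1 or any vehicle library was left out (adjusted p = 0.051 to 0.087 by limma), while *Txnip* and *Hmox1* kept theirs in all 8 such fits. *Xdh*, *Maoa*, *Gpx3* and *Cat* differed by at most 0.038 in size, with adjusted p-values of 0.709 to 0.994. *Dpep1*, *Sod3* and *Mgst1* had differences of -0.13, -0.11 and -0.13 and did not pass (adjusted p = 0.333, 0.104 and 0.317).

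The other tables share libraries with this one. There *Txnip* (0.48 ± 0.051 with aldosterone and spironolactone, 0.43 ± 0.051 with spironolactone and vehicle), *Hmox1* (-0.29 ± 0.043 and -0.32 ± 0.042) and *Nqo1* (-0.26 ± 0.064 and -0.39 ± 0.056) passed the test as well, in the same directions. With aldosterone and spironolactone this made 1 gene higher (3.64% of genes were) and 2 lower (4.1%), and with spironolactone and vehicle 1 higher (4.04%) and 3 lower (4.13%). *Sod3* passed it only with spironolactone and vehicle (-0.18 ± 0.043, adjusted p = 0.0048). Leaving out spironolactone 2_2 ended that call (-0.14; limma adjusted p = 0.066), and leaving out spironolactone 2_1 ended the one on *Nqo1* with aldosterone and spironolactone (-0.22; limma adjusted p = 0.053). Without aldosterone 2_1 *Sod3* passed there too (-0.17), and *Mgst1*, at -0.22 with spironolactone and vehicle (limma adjusted p = 0.054), passed without spironolactone 1_1, spironolactone 2_1 or vehicle 2_1 (-0.28 to -0.26). Over all 12 libraries edgeR also called *Sod3* lower in sample number 2 (-0.14).

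Whether the aldosterone difference itself depended on the sample number was asked with an interaction term, for which 4 of 27319 genes passed an adjusted p of 0.05 (0.0146%) and none of the 10. *Gpx3* had a difference from vehicle of 1.29 in sample number 1 and 1.60 in sample number 2, an interaction of 0.31 ± 0.10 (95% interval 0.097 to 0.53; limma adjusted p = 0.895). *Nqo1* had -0.12 and 0.13, an interaction of 0.25 ± 0.10 (0.026 to 0.47; limma adjusted p = 0.895). In *Nqo1* the aldosterone libraries were below both vehicle libraries in sample number 1 and above both in sample number 2. Each order rests on 2 libraries per treatment and can arise by chance. The share of all genes with such orders is not given here, and nothing is read from them. For *Dpep1* (4.96 and 5.05), *Xdh* (2.36 and 2.52) and *Txnip* (0.99 and 1.09) the values of the sample numbers were near each other compared with their size.

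**Figure D4:**
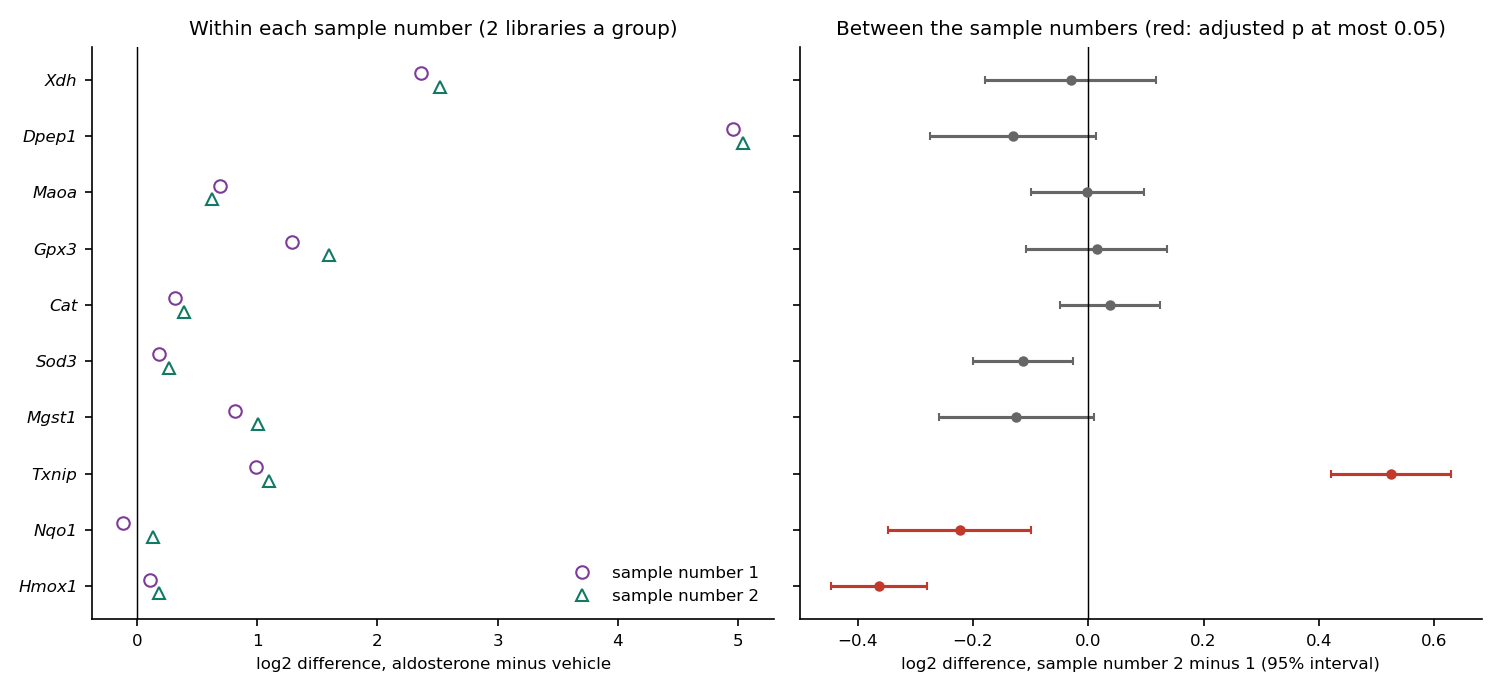
Left, log2 differences between aldosterone and vehicle within sample number 1 (circles) and sample number 2 (triangles), each from 2 libraries per treatment. Right, log2 differences between sample number 2 and 1 in the aldosterone and vehicle table with 95% intervals, red where the adjusted p is at most 0.05: *Txnip* at 0.53, *Nqo1* at -0.22 and *Hmox1* at -0.36.

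The pathways around the 10 genes were described with 12 lists of 178 symbols, of which 153 genes in the aldosterone and vehicle table were not among the 10. These lists were drawn up with earlier results of the same data known. Shares and adjusted p-values of listed genes are therefore a description and no independent evidence. At any fold and a limma adjusted p no higher than 0.05, 35 of the 153 were higher with aldosterone (22.9%, against 5.68% of all genes), 14 were lower (9.15%, against 4.74%) and 104 did not pass, with a median log2 difference of 0.14 against -0.0064 for all genes. Listed genes are higher expressed than most, and among those averaging 10 or more normalized counts the shares were 25.7% higher and 9.56% lower of 136 listed genes, against 9.65% and 8.09% of 15245 genes, with medians of 0.15 and -0.0033. With sample number as a block, 52 of the 153 were higher and 20 lower. The counts by list that follow are small, are to be read against these shares, and are given with the blocked count where it differs by 1.5 times or more. In the fits that left 1 library out, these counts ran from 29 to 38 higher and from 8 to 13 lower, the lower count being 8 without vehicle 2_1 and 9 without aldosterone 1_2 or vehicle 2_2. Counts of glutathione transferases, ferritins, peroxiredoxins, thioredoxin, *Gpx4*, *Hprt* and *Pnp* are uncertain where reads are shared with near-identical copies or pseudogenes.

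Around *Xdh*, 7 of 16 genes of purine breakdown and molybdenum enzymes were higher and none was lower, with a median of 0.31. *Gda*, which deaminates guanine to xanthine, rose by 1.05 ± 0.088 on the log2 scale (224 ± 22.8 to 464 ± 7.52 normalized counts, SD, n = 4; adjusted p = 4.05e-07). *Pnp*, the purine nucleoside phosphorylase that yields hypoxanthine and guanine, rose by 0.96 ± 0.071 (adjusted p = 8.71e-08). *Suox*, sulfite oxidase, another molybdenum enzyme, rose by 0.61 ± 0.080 (adjusted p = 5.83e-05). The salvage enzyme *Hprt*, the highest of the list per kilobase in vehicle (1143 ± 51.3), rose by 0.19 ± 0.056 (adjusted p = 0.039), a call lost when any library but vehicle 1_1 was left out.

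Around *Dpep1*, 2 of 15 genes of dipeptidases, glutathione breakdown and leukotrienes were higher (3 with the block) and 3 were lower, with a median of -0.091. *Oplah*, which opens the 5-oxoproline ring, rose by 0.71 ± 0.085 (adjusted p = 2.49e-05) and the dipeptidase *Cndp2* rose by 0.36 ± 0.079 (adjusted p = 0.0068). *Ggt5*, a gamma-glutamyl transferase, changed by -0.52 ± 0.14 (adjusted p = 0.024) and the aminopeptidase *Anpep* by -0.40 ± 0.11 (adjusted p = 0.028). The third, *Ggt1*, named after its values were seen, was near the floor at 6.50 and 1.33 normalized counts. *Chac1*, a glutathione-degrading enzyme and the highest of the list per kilobase in vehicle (955 ± 123), had a difference of -0.28 ± 0.094 (adjusted p = 0.071), which passed with the sample number block (limma adjusted p = 0.00099), by DESeq2 (adjusted p = 0.044) and without vehicle 1_1 (limma adjusted p = 0.013).

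Around *Maoa*, 1 of 9 amine and amino acid oxidases was higher and 1 was lower (2 and 2 with the block). *Pipox*, a peroxisomal sarcosine oxidase, went from 6.25 ± 3.65 to 27.3 ± 11.5 normalized counts (2.04 ± 0.45; adjusted p = 0.0063), and the spermine oxidase *Smox* changed by -0.41 ± 0.12 (adjusted p = 0.033). *Maoa* itself was the highest of its list per kilobase in vehicle. Of the other 4 glutathione peroxidases, *Gpx4*, which protects membrane lipids, rose by 0.33 ± 0.077 (adjusted p = 0.010) and 3 did not pass (1 of them lower with the block). None of the other 3 genes of superoxide dismutases and catalase passed.

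Among 23 glutathione transferases beside *Mgst1*, 6 were higher and 2 were lower. *Gsto1* (0.64 ± 0.086), *Gstm1* (0.57 ± 0.064) and *Gstk1* (0.49 ± 0.11) rose, with adjusted p-values of 8.13e-05, 1.29e-05 and 0.0060. *Gsta4*, which acts on lipid aldehydes, changed by -0.88 ± 0.10 (895 ± 147 to 482 ± 45.5 normalized counts; adjusted p = 2.09e-05), and *Gsta1* by -1.55 ± 0.38 (adjusted p = 0.013). *Gstp1*, the highest per kilobase in vehicle, had a difference of 0.16 ± 0.076 (adjusted p = 0.251, and 0.035 with the block).

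Beside *Txnip*, 8 of 23 genes of the thioredoxin system, peroxiredoxins and alpha-arrestins were higher (13 with the block) and 4 were lower. *Prdx6*, a peroxiredoxin that reduces phospholipid peroxides, rose by 1.09 ± 0.074 (2153 ± 199 to 4581 ± 399 normalized counts; adjusted p = 3.78e-08). The glutaredoxin *Glrx* rose by 1.05 ± 0.080 (adjusted p = 1.31e-07) and *Sesn1*, a sestrin, by 1.01 ± 0.094 (adjusted p = 1.41e-06). Thioredoxin reductase *Txnrd1* changed by -0.42 ± 0.083 (adjusted p = 0.0031), *Sesn3* by -0.36 ± 0.077 (adjusted p = 0.0055) and *Sesn2* by -0.30 ± 0.070 (adjusted p = 0.0094). *Txn1*, thioredoxin itself, had 0.23 ± 0.068 (adjusted p = 0.043), a call lost when any library but aldosterone 2_1 or vehicle 1_2 was left out.

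Of 20 NRF2 targets beside *Nqo1* and *Hmox1*, 4 were higher, 4 were lower and 12 did not pass, with a median of 0.15. With the block 10 were higher and 5 lower. The ferritin heavy chain *Fth1* rose by 1.55 ± 0.064 (16971 ± 1233 to 49575 ± 1859 normalized counts; adjusted p = 8.04e-11), *Gclc*, the catalytic subunit that starts glutathione synthesis, by 1.09 ± 0.083 (adjusted p = 1.22e-07) and *Pgd* of the pentose phosphate pathway by 0.33 ± 0.064 (adjusted p = 0.0022). The cystine carrier *Slc7a11* changed by -0.49 ± 0.12 (adjusted p = 0.014), malic enzyme *Me1* by -0.46 ± 0.068 (adjusted p = 0.00021), and *Txnrd1* as above. *Ftl1*, the light ferritin chain and the highest of the list, had 0.16 ± 0.086 (adjusted p = 0.343, and 0.018 with the block). Of 9 NRF2 regulators only *Mafk*, a small MAF partner, passed (0.55 ± 0.069; adjusted p = 4.61e-05; with the block 2 were higher and 1 lower), and *Sqstm1*, the highest of them per kilobase, had 0.013 ± 0.053.

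Of 9 NADPH oxidase genes, 2 were higher and none was lower. *Nox4*, the oxidase that releases hydrogen peroxide, rose by 0.59 ± 0.11 (252 ± 29.1 to 380 ± 46.9 normalized counts; adjusted p = 0.0014) and the maturation factor *Duoxa1* by 1.23 ± 0.24 (adjusted p = 0.0027). *Cyba*, the shared subunit and the highest per kilobase, had 0.13 ± 0.071 (adjusted p = 0.319). Beside *Gpx3*, 4 of 21 selenoproteins were higher and 1 was lower (6 and 2 with the block). *Selenop*, the secreted selenium carrier, rose by 1.62 ± 0.066 (1230 ± 79.0 to 3792 ± 281 normalized counts; adjusted p = 7.16e-11), and *Dio3*, which inactivates thyroid hormone, by 0.99 ± 0.21 (adjusted p = 0.0044). *Selenow*, the highest per kilobase, had 0.26 ± 0.072 (adjusted p = 0.028). In the list of heme breakdown and selenoprotein synthesis, 1 of 11 was higher (*Selenop*; 2 with the block) and 2 were lower, the selenoprotein P receptor *Lrp8* (-0.61 ± 0.14; adjusted p = 0.0084) and *Sephs1* (-0.23 ± 0.058; adjusted p = 0.015).

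**Figure D5:**
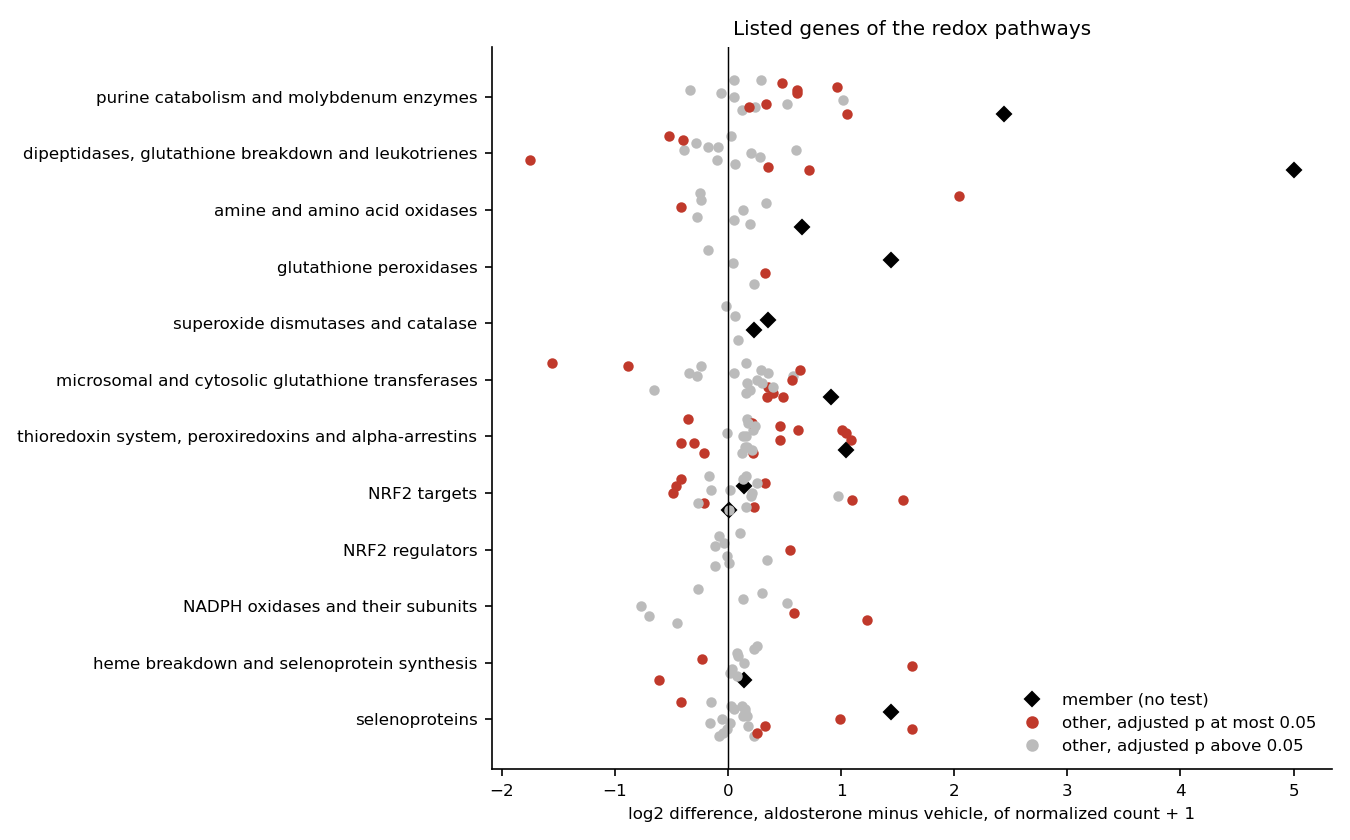
Log2 differences between aldosterone and vehicle (x axis) of the listed genes in 12 lists (rows), with black diamonds for the 10 genes, red points for others with an adjusted p no higher than 0.05, and grey points for the rest. Red points lie on both sides of 0 in 7 of the lists, and the diamonds of *Dpep1* (5.00) and *Xdh* (2.44) lie beyond every other point of their lists.

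Over 12 libraries, and from 15252 genes averaging 10 or more normalized counts, the genes whose log2 CPM was most like that of *Dpep1* were *Tsc22d3* (Pearson's r = 0.998), *Ndrg2* (r = 0.998) and *Serpina3m* (r = 0.998). For *Xdh* they were *Peak1* (r = 0.994), *Map7d2* (r = 0.993) and *Pdk4* (r = 0.992). The 12 points share 3 treatments, and each r includes the gap between the aldosterone libraries and the rest. Between *Xdh* and *Dpep1* r was 0.988, and for *Dpep1* with the other 8 genes it ran from -0.0045 (*Nqo1*) to 0.991 (*Gpx3*). Ranked by Spearman's rho instead, *Mt1* (0.979) led for *Dpep1* and *Cdc40* (0.965) for *Xdh*, and 0 of 3 genes were shared between the measures in either case.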

How the data were processed

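Poly(A) RNA of 12 plates of neonatal mouse hindlimb fibroblasts was sequenced, 4 libraries per treatment. The authors deposited 1 table per pair of treatments, holding signal values called normalized counts here (reads of a gene over the size factor of its library, set anew in each table). The tables also hold the authors' group means and their DESeq2 log2 fold changes, p-values and adjusted p-values, which were not used. The submitters' processing notes name HISAT2 (2.0.5), featureCounts (1.5.0-p3) and mm39, while the methods of the study name HISAT2 and mm9. Gene positions and exon lengths are those of the tables. Both a directional and a non-directional library are described, so reads of a gene and an antisense partner cannot be told apart.

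Reads were recovered from the step of each column (100% of values whole within 0.02) for counts of depth and for count tests. A fold change on the scale used understates the change of low genes. Every gene of a table was tested with limma (3.58.1, R 4.3.3, trended prior) on log2(normalized count + 1), with treatment alone, and called where the adjusted p (Benjamini-Hochberg) was 0.05 or less, with or without an absolute log2 difference of at least 1. The scripts were tested on simulated data.

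The members, the gene lists and the tests were chosen with earlier results of these data known. Of each list the text names up to 3 genes per direction with the largest difference among those called with a mean of at least 10, and the gene with the highest vehicle level per kilobase. For *Xdh* and *Dpep1* it names the 3 most correlated genes.

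Across genes, same-numbered libraries of unlike treatments shared the direction of their deviations from the group means (r from 0.135 to 0.292 in 24 pairs), so the sample number pairs them, and values with it as a replicate block are given beside counts and named genes whose call they change, while the main values are from the fit with treatment alone. The alternatives were edgeR (4.0.16) and DESeq2 (1.42.0) on the recovered reads, TMM scaling, a pseudocount of 0.5, a minimum mean of 10, either number as a block, no fold threshold and leaving out each library, where genes at 0 in all remaining libraries left the fit. Promoters are RefSeq, GRCm38.p6. The study's protein and cell-function assays were not analysed here.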

Additional observations from a re-analysis of the deposited data

Results flagged for a closer look

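*Xdh* in vehicle had a library that stood apart. The second vehicle library of sample number 1 held 234 normalized counts while the other 3 held between 194 and 198, a gap of 0.903 of the range of the group, above Dixon's 95% critical value for 4 samples. It was the only such library among 30 groups of 4. Chance flags about 1 in 20 groups, so 1 among 30 is no more than chance gives. Without it the difference of *Xdh* from vehicle was 2.50, against 2.44 with it.

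The order of the aldosterone and vehicle libraries of *Nqo1* was opposite in the sample numbers, each with 2 libraries per treatment. Both aldosterone libraries were below both vehicle libraries in sample number 1 and above them in sample number 2. The difference between the sample numbers was 0.25 on the log2 scale, with a 95% interval of 0.026 to 0.47. It did not pass the correction over 27319 genes (limma adjusted p = 0.895), so an effect that depends on the sample number was not resolved.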

How the results depend on the processing

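In both aldosterone comparisons, 8 of the 10 genes were called higher at any fold and 4 at both thresholds with DESeq2, edgeR, TMM scaling, the pseudocount of 0.5 and the minimum mean of 10, and with no fold threshold the 4 became 8. When 1 library was left out they ranged from 7 to 8 against either control, and at both thresholds from 3 to 4 against vehicle and 3 to 5 against spironolactone. Of all genes, DESeq2 called 1706 higher than vehicle at any fold and 341 at both thresholds, and edgeR 1637 and 322. Against spironolactone they were 1508 and 346 by DESeq2 and 1411 and 320 by edgeR. Counts of the 10 genes follow from how they were chosen, and nothing is read from their steadiness. No called difference of these or of the other named genes changed its sign in the alternatives run. Among the other listed genes, leaving out 1 library gave 8 to 13 lower than vehicle, where 14 were lower with all libraries. Of the 36 listed genes named in the text that passed against vehicle, 27 passed in all 15 alternatives and 9 lost the call without 1 library, namely *Hprt*, *Txn1*, *Gsta1* (without vehicle 2_2), *Slc7a11* (vehicle 2_1 or 2_2), *Sephs1* (aldosterone 1_2 or 2_1), *Anpep* (aldosterone 1_2, vehicle 2_1 or 2_2), *Ggt5* (aldosterone 1_1, vehicle 1_2 or 2_1), *Smox* (5 libraries) and *Selenow* (6 libraries). *Hprt* and *Txn1* lost it also with the biological replicate number as a block.

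The fits with sample number as a replicate block left each difference from vehicle as it was and narrowed its interval in all 10 genes. Blocked in this way, 2371 of all genes were higher and 2192 lower than vehicle at any fold (1553 and 1294 without the block, which are also the counts with no fold threshold). Against spironolactone 2095 were higher and 1879 lower (1361 and 1093 without it), and of the other listed genes 47 were higher (33 without it) and 19 lower (11 without it). Against vehicle 52 of these were higher and 20 lower (35 and 14 without it), and of the named genes that had not passed, *Chac1*, *Ftl1* and *Gstp1* did with the block (limma adjusted p = 0.00099, 0.018 and 0.035). For spironolactone against vehicle the block called 63 genes higher and 34 lower at any fold, 2 of them lower at both thresholds, with 1 listed gene higher and 0 of the 10, while DESeq2 called 12 higher and 1 lower. Apart from *Hmox1*, it changed no call on the 10 genes.

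Leaving out 1 library gave between 1237 and 1506 genes higher and 1020 and 1226 lower than vehicle at any fold, and 0 to 3 higher with spironolactone than with vehicle (3 without spironolactone 2_2). Between the sample numbers, 1 to 2 of the 10 genes were lower in the aldosterone and vehicle table and 1 to 3 in that of aldosterone and spironolactone, instead of 2 in each. The interaction was called in 12 genes by edgeR and 11 with the minimum mean of 10, none of the 10 among them. By Spearman, 0 of the 3 genes most like *Xdh* and 0 of those most like *Dpep1* were kept. With 4 libraries a group and treatment alone in the fit, a log2 difference of *Nqo1* anywhere between -0.18 and 0.20 could not be told from none. With sample number as a replicate block that range was -0.11 to 0.13. The cause of these shifts was not tested.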
